A study of Mus musculus with 8 samples.

Results

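The p53 pathway and a set of its target genes were followed in MLO-Y4 cells, a mouse line used as a model of osteocytes, after an antisense oligonucleotide (ASO) against the long non-coding RNA H19. The set was a fixed list of 31 gene symbols. Of these, 30 had a row in the deposited table of 16369 genes, all 30 passed the filter on low counts that kept 12227 genes for testing, and Perp, a cell surface gene induced by p53, was not analysed here. The libraries were RNA-seq of 4 samples labelled H19 silenced (H19 ASO) and 4 labelled WT (control), all from cells in fluid chamber slides under fluid shear stress of 2 Pa for 4 cycles. The controls are called NC in the deposited table, and what they received is not stated in the labels, so the effect of an oligonucleotide as such cannot be told apart from that of less H19. MLO-Y4 derives from a transgenic mouse that carries the SV40 large T antigen, a viral protein known to bind and stabilise p53. The T antigen was not analysed here, and both groups share it. Every library came from cells under flow, and H19 itself was not analysed here.

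p53, encoded by Trp53 in the mouse, is a transcription factor that cells stabilise after DNA damage and other stress. Mdm2 marks p53 for degradation, Mdm4 blocks its activity, and Mdm2 is itself a p53 target, which closes a feedback loop. The target genes act in growth arrest, in DNA repair, in adaptation to nutrient stress and in apoptosis, where proteins such as Bax and the BH3-only proteins Bbc3 (Puma) and Pmaip1 (Noxa) act at the mitochondrion. In bone, p53 is known mainly as a brake on osteoblast differentiation.

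Target genes are known from p53 binding to a decameric half-site, usually as a pair of copies. The 300 bases around each RefSeq start site (250 before and 50 after, GRCm38.p6) were available for 23 of the 31 members. An exact match to the half-site consensus, which is its own reverse complement, stood in a window of 9 of these 23 genes (39.1%), against 2582 of all 27025 genes with a window (9.55%). It was present for 3 of the 6 members that changed with the ASO and for 6 of the other 17 with a window. No member held a second exact match in the same window, and copies that differ from the consensus were not searched for. A match is a description of these letters and not evidence of binding, and known p53 sites of many targets lie in introns, those of Mdm2 among them. The sequences before the start are shown for the 3 changed genes with a match (Bax, chr7:45466899-45467148, minus strand; Ccng1, chr11:40755287-40755536, minus strand; Sesn1, chr10:41887189-41887438, plus strand) and for Mdm2 (chr10:117710759-117711008, minus strand), with 30 bases around the match for Trp53 (chr11:69580274-69580303, plus strand) and Ei24 (chr9:36797335-36797364, minus strand). Each is written 5′ to 3′ on the strand of its gene, from RefSeq, with the half-site in capitals.
Bax: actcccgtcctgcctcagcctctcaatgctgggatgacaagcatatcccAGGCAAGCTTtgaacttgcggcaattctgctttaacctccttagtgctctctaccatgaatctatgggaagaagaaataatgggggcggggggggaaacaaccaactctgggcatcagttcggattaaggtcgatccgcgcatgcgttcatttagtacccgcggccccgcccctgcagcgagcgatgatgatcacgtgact
Ccng1: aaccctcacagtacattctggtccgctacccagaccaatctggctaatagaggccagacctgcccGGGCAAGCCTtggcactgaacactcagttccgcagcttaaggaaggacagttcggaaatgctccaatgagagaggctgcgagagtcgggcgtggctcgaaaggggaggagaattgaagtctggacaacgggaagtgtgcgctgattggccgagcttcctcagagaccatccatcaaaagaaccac
Sesn1: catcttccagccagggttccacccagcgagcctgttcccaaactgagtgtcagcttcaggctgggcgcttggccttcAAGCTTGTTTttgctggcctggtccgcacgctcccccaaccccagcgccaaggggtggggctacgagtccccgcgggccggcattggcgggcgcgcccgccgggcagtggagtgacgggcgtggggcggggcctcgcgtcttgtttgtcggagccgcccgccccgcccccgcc
Mdm2: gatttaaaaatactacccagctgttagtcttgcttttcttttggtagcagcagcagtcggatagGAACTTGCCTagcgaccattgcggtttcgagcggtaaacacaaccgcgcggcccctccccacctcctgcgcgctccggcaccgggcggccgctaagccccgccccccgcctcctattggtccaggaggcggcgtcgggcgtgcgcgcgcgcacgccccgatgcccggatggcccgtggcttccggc
Trp53: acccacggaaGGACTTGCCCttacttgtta
Ei24: ccagctgccccgtgcggcccGGGCATGCCC
The match began 201 bases before the start in Bax, 185 in Ccng1, 186 in Mdm2, 173 in Sesn1, 75 in Trp53 and 10 in Ei24. The other 3 genes with a match were Aen, Ddit4l and Polk. Plk2, Eda2r and Ercc5, which also changed with the ASO, had a window and no match.

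Libraries held 19501984 to 19914209 estimated reads, and members had a median coefficient of variation between libraries of 8.57% in the ASO group and 7.87% in the control group. In the first principal components of all tested genes, component 1 (46.0% of the variance) separated ASO from control and component 2 (17.1%) separated samples 1 and 2 from samples 3 and 4 of both groups, a division that is not in the labels. This division was seen in these same data, so fits that use it are not independent support for a call. Fits of samples 1 and 2 alone or of samples 3 and 4 alone have 2 libraries per group. Of the osteocyte markers, Gja1, Pdpn and Phex were present at 588, 197 and 9.82 CPM (depth-scaled counts) in ASO libraries and 590, 169 and 11.1 CPM in control libraries, whereas Sost and Mepe had at most 3 reads in all 4 libraries of a group. Pdpn was called higher (log2 fold change 0.22 ± 0.06, adjusted p = 0.031), and the matrix genes Dmp1 (0.66 and 1.82 CPM in ASO and control libraries, -1.46 ± 0.34, adjusted p = 0.012) and Bglap (10.7 and 16.2 CPM, -0.60 ± 0.15, adjusted p = 0.018) were called lower, the counts of Bglap not being whole in 7 libraries. The summed level of 5 myeloid markers was 21.1 to 25.8 CPM in ASO libraries and 7.99 to 10.99 CPM in control libraries, most of it Cd68 (18.7 and 6.43 CPM on average, adjusted p = 1.7e-05), with Csf1r at 2.79 and 1.74 CPM (groups separate, adjusted p = 0.052), Lyz2 at 1.11 and 1.34 CPM, Ptprc, the pan-leukocyte gene, at 0.38 and 0.36 CPM and Itgam at 0.13 and 0.01 CPM. The 2 endothelial markers in the table summed to 0.90 CPM or less in each library. The 3 chondrocyte markers in the table summed to 161 to 209 CPM in ASO libraries and 215 to 317 CPM in control libraries, nearly all of it Sox9 (194 and 263 CPM, log2 fold change -0.44 ± 0.11, adjusted p = 0.017). The cartilage collagen gene Col2a1, at 0.55 and 1.17 CPM in ASO and control libraries, was also called lower (-1.07 ± 0.24, adjusted p = 0.0093). The part of these differences in the p53 results was not tested. The labels do not say whether replicates were grown as separate cultures, so the p-values rest on a spread that may be technical.

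All 30 tested members were expressed, and their levels spanned a wide range. In TPM, a unit scaled to gene length and depth, 5 members averaged above 100 TPM over the 8 libraries, 12 averaged 10 to 100 TPM and 13 less than 10 TPM. Plk2, a stress-induced polo-like kinase gene, was the most abundant at 213 ± 17.2 TPM in ASO libraries and 283 ± 29.2 TPM in control libraries (SD, n = 4 each). Trp53 followed with 201 ± 19.02 and 174 ± 6.51 TPM, and Bax, the pore-forming apoptosis gene, with 208 ± 17.8 and 166 ± 15.8 TPM, in ASO and control libraries in each case. The order of Bax and Trp53 differed between the groups. The gap between them was under the SD of either gene in ASO libraries, and in control libraries it was under the SD of Bax and over that of Trp53. Phlda3, an Akt inhibitor gene, and Mdm2 came next, with 126 ± 4.91 and 112 ± 10.4 TPM in ASO libraries and 116 ± 1.12 and 128 ± 4.99 TPM in control libraries. Bbc3 and Pmaip1, the BH3-only genes among the members, averaged below the member median of 16.4 TPM. Bbc3 had 11.8 ± 1.15 TPM in ASO libraries and 13.6 ± 0.80 TPM in control libraries, and Pmaip1, the lowest member, 1.03 ± 0.32 and 1.51 ± 0.30 TPM in the same order.

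**Figure D1:**
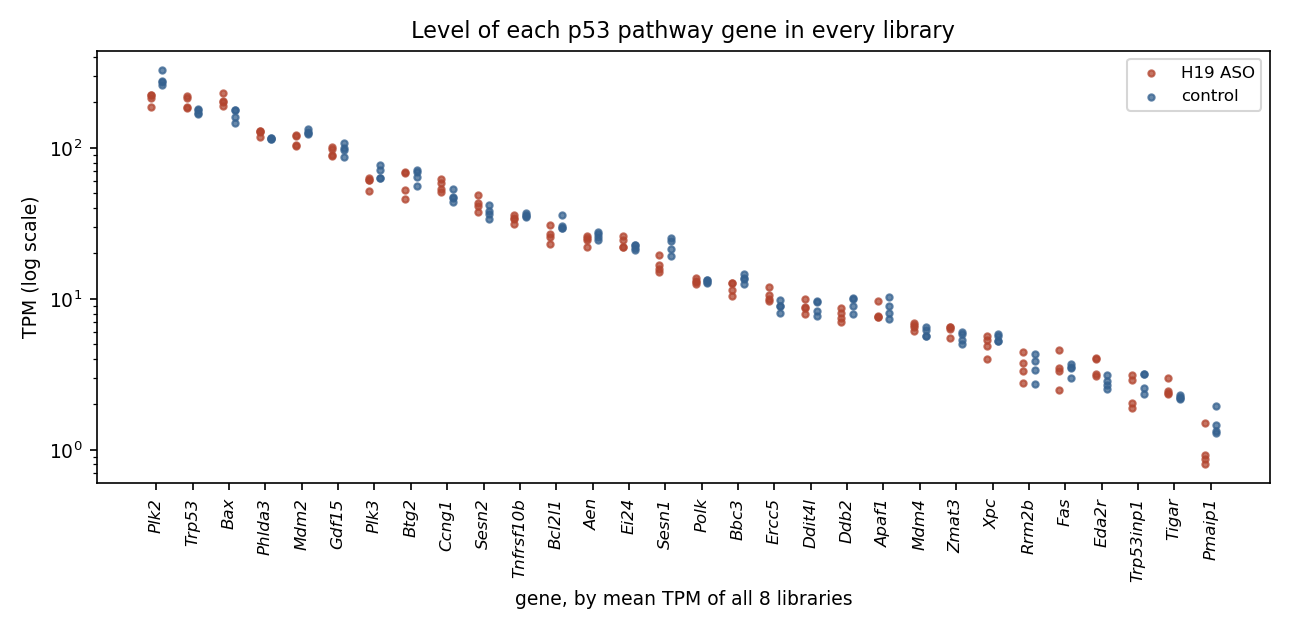
TPM of the 30 measured p53 pathway genes on a log axis, ordered by the mean of all 8 libraries, with 4 points per group and gene (H19 ASO left, control right). The genes run from Plk2 at 213 TPM in ASO and 283 TPM in control libraries to Pmaip1 at 1.03 TPM in ASO and 1.51 TPM in control libraries, and the groups differ far less than the genes do.

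With the ASO, 4 of the 30 tested members rose (Bax, Ccng1, Eda2r and Ercc5), 2 fell (Plk2 and Sesn1) and 24 did not pass (edgeR's quasi-likelihood test, n = 4 per group, with p adjusted over all tested genes by Benjamini-Hochberg and a threshold of 0.05). Over all tested genes 7.11% were called higher and 7.53% lower, 14.6% in all. Whether the share of members called differs from this background was not tested. In bulk RNA, a smaller share of expressing cells and less RNA per cell cannot be told apart. The changes were small, from 33.1% higher (Eda2r) to 23.9% lower (Plk2). The members did not move one way: 15 had a positive and 15 a negative log2 fold change, with a median of -0.02, against 0.0026 for all tested genes. Their median absolute log2 fold change was 0.17, and that of all tested genes 0.12. A further 10 members had an unadjusted p under 0.05 and did not pass. In CPM the ASO libraries all lay above the controls in 6 members and all below in 3, where 19.1% of all tested genes were separated, 9.77% upwards and 9.36% downwards. The number of member calls dropped to 3 (Bax, Plk2 and Sesn1) without ASO replicate 4, control replicate 2 or control replicate 4. In these fits the calls over all genes were 1129, 1105 and 1265, against 1790 with all 8 libraries. Once the division of samples was modelled, 10 members were called, and 3136 of all 12227 tested genes.

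**Figure D2:**
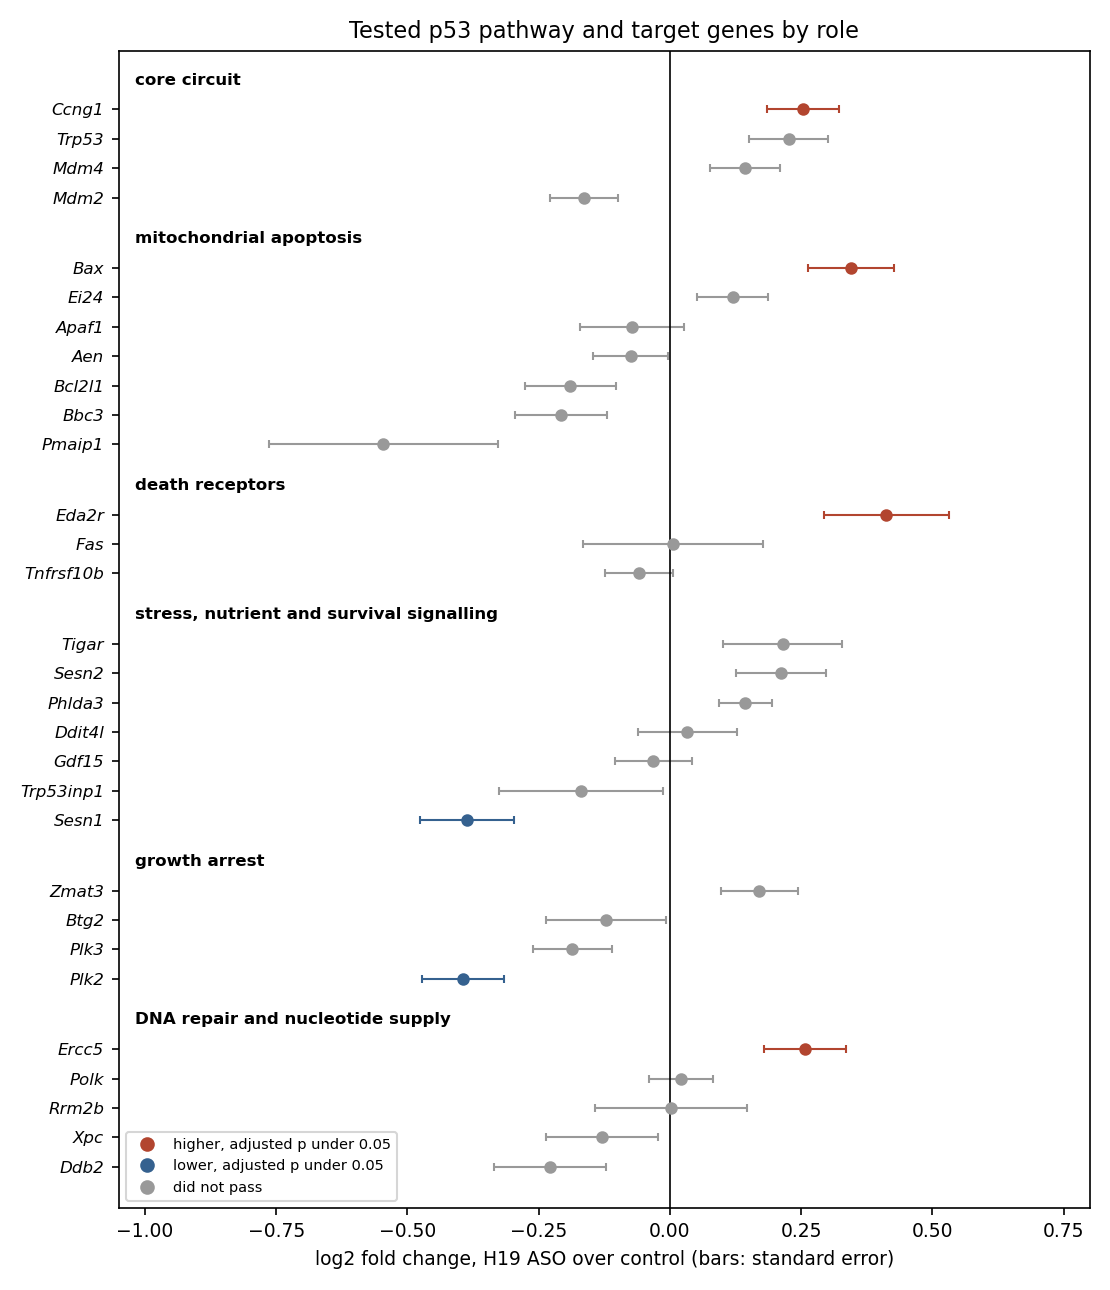
Log2 fold change of H19 ASO over control for the 30 tested p53 pathway genes, grouped by role, with standard errors as bars. The 4 genes that rose (red) and the 2 that fell (blue) stand in 6 different role groups, 1 in each, and the remaining 24 genes (grey) lie on both sides of 0.

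In the core circuit, Ccng1 was the member that passed. Ccng1 encodes cyclin G1, which recruits a phosphatase to Mdm2. It lies on chromosome 11, 40748552 to 40755309 (GRCm38.p6, gene 12450). Its level was 111, 125, 109 and 123 CPM in ASO replicates 1 to 4, against 109, 90.4, 97.7 and 95.9 CPM in control replicates 1 to 4. The groups did not overlap, but the lowest ASO library (109.05 CPM) lay close to the highest control (108.52 CPM), and in TPM they overlapped. The log2 fold change was 0.25 ± 0.07 (SE, adjusted p = 0.026), and the call ended in 4 of the 8 leave-one-out fits, those without ASO replicate 2 or 4 or control replicate 2 or 4 (adjusted p up to 0.086).

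Trp53 (chromosome 11, 69580348 to 69591873, gene 22059) did not pass. It had 182, 174, 214 and 219 CPM in ASO replicates 1 to 4, against 161, 164, 173 and 175 CPM in control replicates 1 to 4. ASO replicates 3 and 4 were high, while ASO replicate 2 (174.09 CPM) lay just below control replicate 4 (175.37 CPM). In TPM the groups were separate, with the lowest ASO library at 183.07 TPM and the highest control at 181.47 TPM. The log2 fold change was 0.23 ± 0.08 (adjusted p = 0.061). It passed in 6 of the 21 alternative fits, among them DESeq2 (adjusted p = 0.039), the fit with the sample division modelled (0.0037), those without ASO replicate 1 or 2 (as low as 0.026) and that of samples 3 and 4 alone (log2 fold change 0.31, adjusted p = 0.0039), but not in samples 1 and 2 alone (0.13, adjusted p = 0.25). The fits of samples 3 and 4 and of samples 1 and 2 had 2 libraries per group each, and their division came from these same data. Whether the difference itself varied between these samples was not tested.

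Mdm2 (chromosome 10, 117688875 to 117710758, gene 17246), the ubiquitin ligase gene, had 187, 217, 195 and 222 CPM in ASO replicates 1 to 4, against 229, 222, 227 and 242 CPM in control replicates 1 to 4. The ASO libraries all lay below the controls, the closest pair being 222.12 CPM in ASO replicate 4 and 222.17 CPM in control replicate 2. The log2 fold change of -0.16 ± 0.07 did not pass (adjusted p = 0.11), though it did once the sample division was modelled (adjusted p = 0.044). Some of its counts were not whole, in 4 libraries, which leaves its level uncertain. The ratio of Mdm2 to Trp53 TPM within a library was 0.55, 0.67, 0.49 and 0.54 in ASO replicates 1 to 4 and 0.76, 0.73, 0.70 and 0.74 in control replicates 1 to 4. This ratio was chosen after the values were seen and has no test. Mdm4 had 29.4 ± 1.00 CPM in ASO libraries and 26.6 ± 1.71 CPM in control libraries (log2 fold change 0.14 ± 0.07, adjusted p = 0.17), with overlapping groups.

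**Figure D3:**
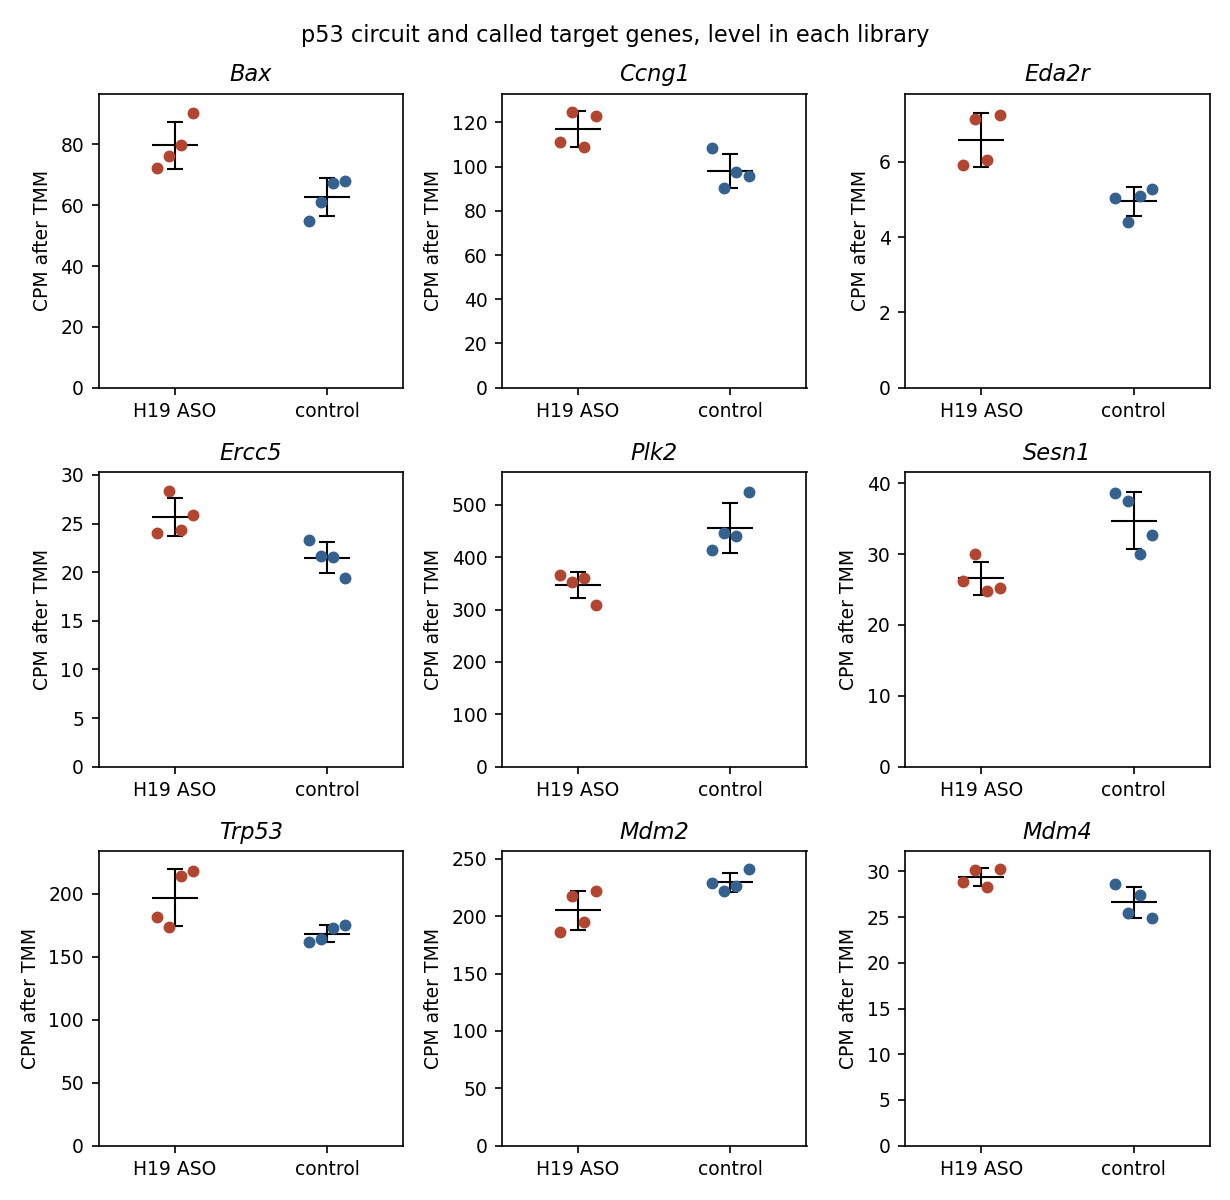
CPM after TMM scaling in each library for the 6 called members and for Trp53, Mdm2 and Mdm4, with H19 ASO left of control and replicates 1 to 4 from left to right within a group. Bars are the mean and SD of 4 libraries. Bax, Ccng1, Eda2r and Ercc5 lie higher and Plk2 and Sesn1 lower in every ASO library than in any control, while the groups overlap in Trp53 and Mdm4.

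Of 7 measured genes grouped here under mitochondrial apoptosis, 1 rose and 0 fell. Bax (chromosome 7, 45461695 to 45466903, gene 12028) had 72.3, 76.3, 79.7 and 90.4 CPM in ASO replicates 1 to 4, against 54.7, 61.0, 67.3 and 68.0 CPM in control replicates 1 to 4. Every ASO library lay above every control. The log2 fold change was 0.35 ± 0.08 (adjusted p = 0.014), and Bax passed in each of the 21 alternative fits, with log2 fold changes from 0.28 to 0.39 and adjusted p up to 0.048.

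Bcl2l1, which encodes the Bax antagonist BCL-XL, had 38.8 ± 4.36 CPM in ASO libraries and 44.2 ± 4.10 CPM in control libraries (log2 fold change -0.19 ± 0.09, adjusted p = 0.16). Fitted alone, samples 3 and 4 passed (-0.34, adjusted p = 0.0091), as did the fit without ASO replicate 1 (-0.26, adjusted p = 0.047), and in samples 1 and 2 alone the log2 fold change was -0.04 (adjusted p = 0.83). The ratio of Bax to Bcl2l1 TPM was 6.16, 7.64, 7.89 and 10.1 in ASO replicates 1 to 4 and 4.79, 5.45, 6.05 and 5.003 in control replicates 1 to 4. Each ASO value lay above each control value. This ratio too was chosen after the values were seen and was not tested. The ratio of Bbc3 to Bcl2l1 TPM overlapped between the groups and was not tested either. It was 0.37, 0.48, 0.40 and 0.55 in ASO replicates 1 to 4 and 0.48, 0.46, 0.43 and 0.38 in control replicates 1 to 4. The Bcl2l1 locus overlaps the protein-coding gene Cox4i2 over 6308 bases, and reads of these genes cannot be told apart.

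The BH3-only genes, whose proteins free Bax from its inhibitors, did not pass. Bbc3 had 11.3, 12.3, 10.7 and 12.8 CPM in ASO replicates 1 to 4, against 14.4, 13.9, 12.7 and 13.3 CPM in control replicates 1 to 4 (log2 fold change -0.21 ± 0.09, adjusted p = 0.13). The groups overlapped only through ASO replicate 4 and control replicate 3. Pmaip1 had 1.57 ± 0.45 and 2.29 ± 0.44 CPM in ASO and control libraries, with the lowest log2 fold change of all members and the widest error (-0.55 ± 0.22, adjusted p = 0.11). It passed without ASO replicate 2 (adjusted p = 0.034). The other members of this group were Ei24 (0.12 ± 0.07), which encodes a protein of the endoplasmic reticulum, the exonuclease gene Aen (-0.07 ± 0.07) and Apaf1, the scaffold of the apoptosome (-0.07 ± 0.10). None of these 3 passed.

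Among the 3 genes grouped here under death receptors, only Eda2r passed, and it rose. The grouping does not show how its receptor signals. Eda2r, which encodes a receptor for ectodysplasin A2 (chromosome X, 97333837 to 97377234, gene 245527), had 5.90, 7.14, 6.04 and 7.25 CPM in ASO replicates 1 to 4, against 5.03, 4.39, 5.09 and 5.27 CPM in control replicates 1 to 4. The groups did not overlap in CPM but did in TPM. Its log2 fold change of 0.41 ± 0.12 (adjusted p = 0.034) was the highest of the members, in a gene with about 5 CPM in controls. The call ended in 5 of the 8 leave-one-out fits, those without ASO replicate 2 or 4 or control replicate 1, 2 or 4 (adjusted p up to 0.10). Fas, the receptor of Fas ligand, had 2.80 ± 0.66 and 2.79 ± 0.08 CPM in ASO and control libraries (log2 fold change 0.0065 ± 0.17, adjusted p = 0.98), and Tnfrsf10b, the mouse TRAIL receptor gene, 63.6 ± 5.04 and 66.2 ± 2.10 CPM (-0.06 ± 0.06, adjusted p = 0.57). Counts of Tnfrsf10b were not whole in 7 libraries. The Eda2r locus overlaps the pseudogene Gm18111 over 674 bases.

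Of 7 genes for stress, nutrient and survival signalling, 1 fell and 0 rose. Sesn1 (chromosome 10, 41810574 to 41908436, gene 140742) encodes a sestrin, a protein that restrains the growth kinase complex mTORC1. Its level was 26.2, 29.98, 24.8 and 25.3 CPM in ASO replicates 1 to 4, against 38.7, 37.5, 29.99 and 32.7 CPM in control replicates 1 to 4. The groups met at ASO replicate 2 and control replicate 3, and in TPM they overlapped. The log2 fold change was -0.39 ± 0.09 (adjusted p = 0.012), and the call held in 20 of 21 alternative fits, the exception being log2(TPM + 1) without a filter (adjusted p = 0.059).

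Its paralog Sesn2 had the opposite sign. Sesn2 had 57.7, 61.9, 68.4 and 76.3 CPM in ASO replicates 1 to 4, against 62.6, 51.7, 56.0 and 58.0 CPM in control replicates 1 to 4 (log2 fold change 0.21 ± 0.09, adjusted p = 0.11). ASO replicates 3 and 4 were the highest libraries, and ASO replicate 1 lay below control replicate 1. Samples 3 and 4 fitted alone passed (0.35, adjusted p = 0.0022), as did the fit with the division modelled (0.038) and that without ASO replicate 1 (0.041), and in samples 1 and 2 alone its log2 fold change was 0.07 (adjusted p = 0.72). Phlda3 had 98.2, 96.0, 93.9 and 100.4 CPM in ASO replicates 1 to 4, against 87.5, 87.5, 87.7 and 88.9 CPM in control replicates 1 to 4. The groups were separate in CPM and TPM with a small difference (log2 fold change 0.14 ± 0.05, adjusted p = 0.072), which passed with DESeq2 (0.045) and once the sample division was modelled (0.032). Tigar, a phosphatase gene that slows glycolysis, was also separate in both units (5.56 ± 0.52 and 4.79 ± 0.14 CPM in ASO and control libraries, log2 fold change 0.21 ± 0.11, adjusted p = 0.22). Ddit4l, an mTOR inhibitor gene (0.03 ± 0.10), the secreted stress cytokine gene Gdf15 (-0.03 ± 0.07) and the p53 cofactor gene Trp53inp1 (-0.17 ± 0.16) did not pass.

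Of 4 growth arrest genes, 1 fell and 0 rose. Plk2 (chromosome 13, 110395044 to 110400844, gene 20620) had 366, 352, 361 and 310 CPM in ASO replicates 1 to 4, against 414, 447, 440 and 524 CPM in control replicates 1 to 4. Every ASO library lay below every control, in CPM and TPM, with replicate 4 the lowest of the ASO group and the highest of the controls. The log2 fold change was -0.39 ± 0.08 (adjusted p = 0.0051), the smallest p among the members, and Plk2 passed in each of the 21 alternative fits, with log2 fold changes between -0.52 and -0.26. The related kinase gene Plk3 had 80.7 ± 5.58 CPM in ASO libraries and 91.8 ± 9.16 CPM in control libraries (-0.19 ± 0.08, adjusted p = 0.12). Plk3 overlapped between the groups in CPM, while in TPM every ASO library lay below every control. It passed in 2 of the 21 alternative fits, among them samples 3 and 4 alone (adjusted p = 0.040). The antiproliferative gene Btg2 varied most between ASO libraries in this group (83.2, 120.0, 97.8 and 126.5 CPM in ASO replicates 1 to 4, against 113.5, 101.0, 123.9 and 126.9 CPM in control replicates 1 to 4, log2 fold change -0.12 ± 0.11, adjusted p = 0.50). Zmat3, which encodes an RNA-binding zinc finger protein, stood at 0.17 ± 0.07 on the log2 fold change scale (adjusted p = 0.14).

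Of 5 genes for DNA repair and nucleotide supply, 1 rose and 0 fell. Ercc5 (chromosome 1, 44146948 to 44181260, gene 22592) encodes XPG, an endonuclease of nucleotide excision repair. It had 24.1, 28.4, 24.3 and 25.9 CPM in ASO replicates 1 to 4, against 23.3, 21.6, 21.6 and 19.4 CPM in control replicates 1 to 4. The groups did not overlap in CPM but did in TPM, and the log2 fold change was 0.26 ± 0.08 (adjusted p = 0.042). In leave-one-out fits this call was the least stable of the members: it ended in 6 of the 8 and held only without ASO replicate 1 or control replicate 1 (adjusted p up to 0.12). Over all 21 alternatives, Ercc5 and Eda2r each passed in 11. The damage recognition genes of the same repair pathway did not pass, with 8.04 ± 0.62 and 9.42 ± 1.00 CPM for Ddb2 (-0.23 ± 0.11, adjusted p = 0.17) and 10.8 ± 1.504 and 11.8 ± 0.61 CPM for Xpc (-0.13 ± 0.11, adjusted p = 0.44) in ASO and control libraries. Polk, a translesion DNA polymerase gene (0.02 ± 0.06, adjusted p = 0.85), and Rrm2b, a ribonucleotide reductase subunit gene (0.0014 ± 0.14, adjusted p = 1.00), had log2 fold changes near 0.

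**Figure D4:**
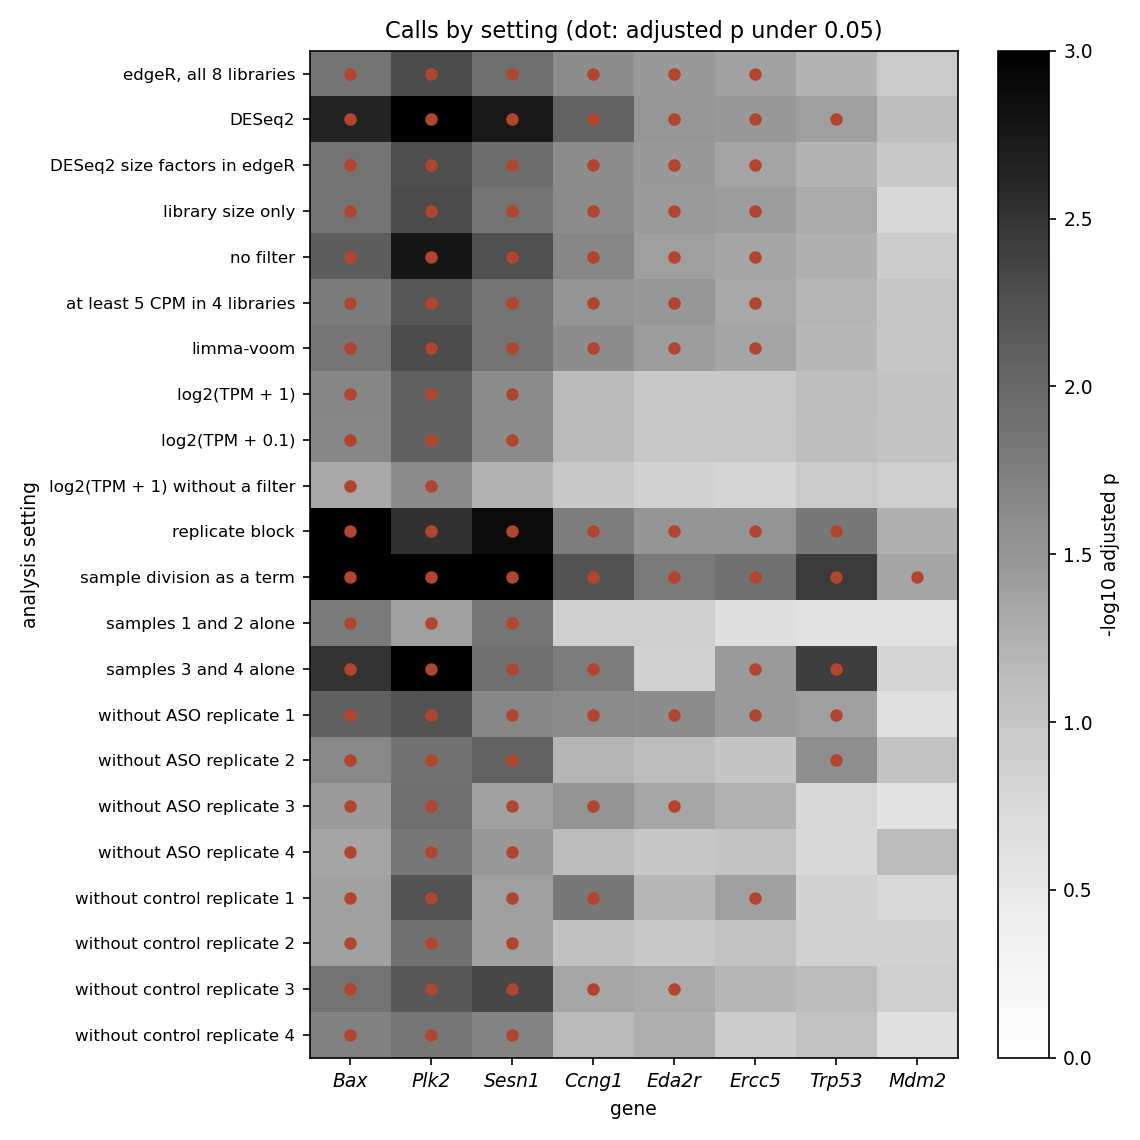
Adjusted p of 8 members in each of 22 analysis settings, as shade on a -log10 scale that saturates at 3, with a dot where the adjusted p is under 0.05. Bax and Plk2 carry a dot in every setting and Sesn1 in all but 1, Ccng1, Eda2r and Ercc5 lose theirs in 8, 10 and 10 of the 21 alternatives, and Trp53 gains one in 6.

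The rest of the pathway was read from 79 further genes, of which 76 were tested: 6 were higher and 6 lower, again beside 14.6% of all tested genes called. Among 38 further p53 targets, 5 were higher and 4 lower. Cdkn1a, which encodes the cell cycle inhibitor p21 and is the best known p53 target (chromosome 17, 29090979 to 29100722), had 222, 252, 251 and 258 CPM in ASO replicates 1 to 4, against 289, 269, 286 and 293 CPM in control replicates 1 to 4. Every ASO library lay below every control, with a log2 fold change of -0.21 ± 0.06 (adjusted p = 0.036). Its call ended in 5 of the 8 leave-one-out fits, those without ASO replicate 1 or 3 or control replicate 1, 3 or 4 (adjusted p up to 0.090).

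The targets that rose were Bak1, the pore-forming partner of Bax (0.33 ± 0.06, adjusted p = 0.0026), Gtse1 (0.39 ± 0.07, adjusted p = 0.0026) and Psrc1 (0.32 ± 0.07, adjusted p = 0.0078), which both act on microtubules in mitosis, the arginine synthesis gene Ass1 (0.24 ± 0.06, adjusted p = 0.027) and Shisa5 (0.29 ± 0.08, adjusted p = 0.031). Bak1 had 138 ± 8.13 CPM in ASO libraries and 110 ± 3.18 CPM in control libraries. Its locus overlaps the protein-coding gene Ggnbp1 over 8816 bases, and reads of these genes cannot be told apart. Besides Cdkn1a, those that fell were Trp53i11 (-0.97 ± 0.24, adjusted p = 0.014), Thbs1, the thrombospondin gene (-0.39 ± 0.08, adjusted p = 0.0050), and the receptor gene Notch1 (-0.38 ± 0.10, adjusted p = 0.019). Trp53i11 had 89.6, 76.1, 50.5 and 40.8 CPM in ASO replicates 1 to 4, against 156, 165, 95.3 and 88.6 CPM in control replicates 1 to 4. It was lower in ASO within samples 1 and 2 and within samples 3 and 4, and higher in samples 1 and 2 of both groups, so that the groups overlapped by 1 library. Without ASO replicate 3 its adjusted p was 0.0502 and the call ended.

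Of 16 activating kinases and cofactors, 1 was lower, Ppp1r13b, which encodes the p53 cofactor ASPP1 (-0.35 ± 0.10, adjusted p = 0.036). The damage kinase genes Atm (-0.15 ± 0.07, adjusted p = 0.14), Atr, Chek1 and Chek2 did not pass, nor did Cdkn2a, whose locus also encodes the Mdm2 inhibitor p19Arf, at 375 and 369 CPM in ASO and control libraries. Of 12 genes grouped here as inhibitors and negative regulators, 0 were called by edgeR, DESeq2 or limma-voom. In edgeR 3 of the 12 had an unadjusted p under 0.05, and 1 passed once the sample division was modelled. This group includes Bcl2, Mcl1 and Wrap53, and whether each gene restrains p53 in these cells was not tested. Of 9 apoptosis executors 1 was higher: Casp6, an effector caspase gene, had 38.3, 41.1, 46.5 and 44.5 CPM in ASO replicates 1 to 4, against 28.9, 29.5, 29.2 and 30.8 CPM in control replicates 1 to 4 (0.53 ± 0.07, adjusted p = 4.4e-04), and passed in each of the 21 alternative fits. The p53 relative Trp63 was lower (5.78 ± 0.56 and 8.17 ± 1.65 CPM in ASO and control libraries, -0.50 ± 0.14, adjusted p = 0.035), with overlapping groups. The calls of Ppp1r13b (6 of 8 fits, adjusted p up to 0.11), Trp63 (5 of 8, up to 0.11), Ass1 (5 of 8, up to 0.080) and Shisa5 (5 of 8, up to 0.094) ended in most leave-one-out fits, and that of Notch1 in 3 of 8 (up to 0.065).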

How the data were processed

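RNA-seq libraries of 8 MLO-Y4 samples, 4 H19 ASO and 4 control, were grouped by their titles. The submitters' processing notes name HISAT, Bowtie2, GRCm38.p6 and mm10 without roles. The sources used here give neither counting tool nor strandedness, so reads of overlapping genes cannot be told apart. Another annotated gene overlaps 10 members and, among the other named genes, Bak1, Casp6, Notch1, Trp63 and Ppp1r13b. Per the file headers, the authors deposited estimated counts, FPKM and TPM per library with group means. FPKM and TPM are the authors' length- and depth-scaled values; FPKM and the means were not used. Estimated counts were rounded, filtered with filterByExpr (minimum count 10), TMM-scaled and tested (edgeR 4.0.16 in R 4.3.3; quasi-likelihood test, only group in the model) over all genes, with Benjamini-Hochberg adjustment at 0.05. Standard errors derive from the F statistic, and CPM are per library after TMM, 1 CPM being 19.1 to 20.0 reads. The test was tried on simulated counts. Replicates differed by more than sampling noise (chi-square per degree of freedom 4.87 to 19.1). Gene positions come from RefSeq GRCm38.p6, which matched 16321 identifiers. Alternatives were DESeq2 1.42.0, its size factors, library size alone, no filter and 5 CPM in 4 libraries, limma 3.58.1 (voom; trend on log2 TPM with pseudocount 1 or 0.1 and a mean of at least 1 TPM, or no filter), a replicate block, the sample division, and each library left out. Members, lists and the division were chosen with earlier results of these data known. Named were all members, Cdkn1a and up to 12 called genes of the other lists.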

Additional observations from a re-analysis of the deposited data

Results flagged for a closer look

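Among 84 groups of 4 libraries (42 named genes, CPM), 3 held a library far from the others by Dixon's ratio of its gap to the range of the group, where chance gives about 4.2. Apaf1 had 38.1 CPM in ASO replicate 2 and 30.5 to 31.7 CPM in the other ASO libraries (ratio 0.845). Plk3 had 72.5 CPM in ASO replicate 3 and 82.6 to 84.7 CPM in the others (ratio 0.832). Phlda3 had 88.9 CPM in control replicate 4 and 87.5 to 87.7 CPM in the other controls (ratio 0.846), a gap of about 1 CPM.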

How the results depend on the processing

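The 6 member calls were kept with DESeq2, both other scalings, both other count filters, limma-voom, the replicate block and the sample division. On TPM, the number called was 3 on log2(TPM + 1) and 3 on log2(TPM + 0.1), with 1 higher in each, and 2 on log2(TPM + 1) without a filter, with 1 higher and 1 lower. It was 10 with the sample division as a term (7 higher) and 3 in samples 1 and 2 alone (1 higher), and 4 members were lower in samples 3 and 4 alone. Leaving out 1 library gave 3 to 9 members called, 1 to 6 higher and 2 to 3 lower. Of the other pathway genes, 6 were called on log2(TPM + 1) without a filter (2 lower) and 21 with the sample division (12 higher), and leaving out 1 library gave 6 to 15, with 4 to 9 higher and 2 to 6 lower. Over all genes, the calls were 1167 on log2(TPM + 1) without a filter (554 higher, 613 lower), 3136 with the division (1560 and 1576) and 1036 in samples 1 and 2 alone (507 and 529), with 573 higher on log2(TPM + 0.1). Leaving out 1 library gave 1105 to 1940 calls, 538 to 965 higher and 567 to 975 lower. The causes were not tested. No called member changed sign in any alternative. Same-numbered libraries deviated together with correlations from 0.05 to 0.21, under 0.1 for number 1, and not every library correlated best with its own number, so they were not taken as pairs; the replicate block gave 2575 calls over all genes and 8 among the members, adding Trp53 (log2 fold change 0.22, adjusted p = 0.015) and Plk3 (-0.18, adjusted p = 0.039) to the 6.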
